A study of Mus musculus with 8 samples.

Results

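The genes described here are the Wnt ligands, the Frizzled receptors and the secreted Sfrp and Dkk inhibitors of Wnt signalling, taken by gene symbol from RNA-seq of the mouse lumbar spinal cord. Of the 23278 genes in the tables, 37 had such a symbol: 19 Wnt ligands, 10 Frizzled receptors, 4 Sfrp genes and 4 Dkk genes. The RNA came from laser-captured ventral horn motor neurons and from the white matter around them, of FVB/N mice at postnatal day 1. SMA motor neurons and SMA white matter came from mice of the genotype SMN2+/+;SMNΔ7+/+;Smn-/-, a model of spinal muscular atrophy (SMA) that lacks mouse Smn in every cell and carries human SMN2 together with the SMNΔ7 transgene. WT motor neurons and WT white matter came from wild-type mice, and each of the 4 groups held 2 libraries. Captures were chosen by position and morphology in stained sections. The labels name neither the animals nor how many were pooled, so the p-values below rest on library-to-library spread alone, which may be technical.

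Wnt proteins are secreted, lipid-modified signals that bind the cysteine-rich domain of Frizzled receptors. With the co-receptors Lrp5 and Lrp6 they stabilise beta-catenin, which acts with TCF/LEF factors on target genes; with other partners they steer planar cell polarity and axon growth. Sfrp proteins carry a Frizzled-like cysteine-rich domain and bind Wnts outside the cell, while Dkk proteins bind the Lrp co-receptors, apart from the divergent member Dkk3. In the developing spinal cord Wnts from the roof plate and ventricular zone pattern progenitors and guide axons, and TCF/LEF activity sets the timing of oligodendrocyte differentiation.

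Expression is given in RPKM, the authors' read density scaled to gene length and library size, so levels can be compared between genes. The RPKM denominators corresponded to 77.5 to 102.8 M reads per library, and 11539 to 12796 genes per library reached 1 RPKM. The captures held the cells their labels name: 7 of 7 motor neuron markers were found, with a summed level of 535 to 541 RPKM in SMA motor neurons and 619 to 637 RPKM in WT motor neurons, against 8.81 to 19.1 RPKM in SMA white matter and 6.9 to 9.4 RPKM in WT white matter. The 7 markers of myelinating oligodendrocytes summed to 78.8 to 113 RPKM in SMA motor neurons and 40.3 to 63.3 RPKM in WT motor neurons, against 2340 to 4520 RPKM in SMA white matter and 1760 to 3580 RPKM in WT white matter. The 7 spinal interneuron markers also summed higher in the motor neuron captures, at 73 and 77.8 RPKM in SMA and 65.1 and 40.4 RPKM in WT. In white matter they summed to 12.5 and 12.6 RPKM in SMA and 11.8 and 3.72 RPKM in WT. The part of interneuron RNA in the results below was not tested. No marker of the 10 cell type lists was at 0 in all motor neuron or all white matter libraries. Genes with at least 1 RPKM in at least 2 libraries were tested, 13948 in all, with limma on log2(RPKM + 1), and a change was called at a Benjamini-Hochberg adjusted p under 0.05 over all of them. All log2 differences below are on this scale with their SE, and the added 1 makes differences of weakly expressed genes look smaller.

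Of the 37 genes, 22 passed this filter on low values, namely 8 of 19 ligands, 10 of 10 Frizzled receptors, 3 of 4 Sfrp genes and 1 of 4 Dkk genes. A total of 5 of these 22 met the filter only with libraries of the region in which they were higher: Fzd5, Fzd10, Wnt3 and Wnt5b with white matter libraries and Sfrp4 with motor neuron libraries. Wnt3 and Sfrp4 each also had 1 library of the other region at 1 RPKM or more. The level in 1 region put these 5 genes into the test, so their region values describe them and are no support for a pattern. The other 15 stayed at or below 0.78 RPKM in every library, and none of the 37 was at 0 in all 8.

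**Figure D1:**
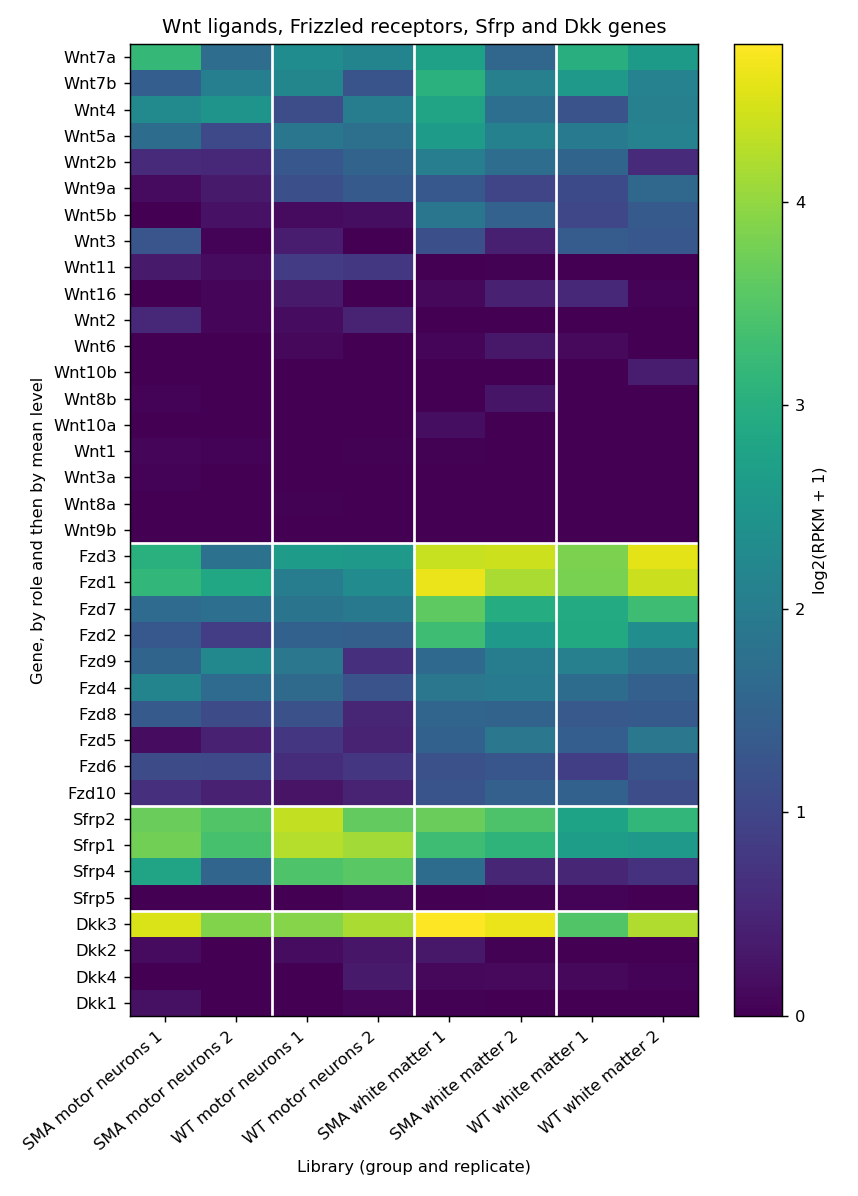
Level of each of the 37 genes in each of the 8 libraries, as log2(RPKM + 1) on the colour scale, with genes grouped by role (ligands, Frizzled receptors, Sfrp, Dkk) and libraries by group and replicate. Fzd3 and Fzd1 are brightest in white matter, and Sfrp1 and Sfrp4 are brightest in WT motor neurons. Sfrp2 is brightest in WT motor neuron replicate 1 but not in replicate 2, and most ligands lie near 0.

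Motor neuron captures had less Frizzled receptor RNA than white matter captures. The 10 Frizzled genes summed to 27.5 and 20.6 RPKM in SMA motor neurons and 20.2 and 17.2 RPKM in WT motor neurons, against 74.7 and 62.7 RPKM in SMA white matter and 50.7 and 66.9 RPKM in WT white matter. The 7 astrocyte markers summed to 104 to 182 RPKM in the motor neuron libraries, against 554 to 845 RPKM in the white matter libraries. For the 6 oligodendrocyte precursor markers the sums were 61.1 to 76.3 RPKM in motor neurons and 304 to 544 RPKM in white matter. The part of these cells in the result was not tested. In such captures, fewer cells of a type and less RNA per cell cannot be told apart. For 6 of the 10 (Fzd1, Fzd2, Fzd3, Fzd5, Fzd7 and Fzd10), all 4 motor neuron libraries lay below all 4 white matter libraries, as did 20.7% of all genes tested, though Fzd5 and Fzd10 had passed the filter only through white matter. The remaining genes, Fzd4, Fzd6, Fzd8 and Fzd9, overlapped between the regions.

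Fzd3, a receptor known for its part in planar polarity and axon guidance, was at 7.20 and 2.42 RPKM in SMA motor neurons and 5.27 and 4.95 RPKM in WT motor neurons. In SMA white matter it was at 19.8 and 20.2 RPKM, and in WT white matter at 13.3 and 22.9 RPKM. Every motor neuron library was below every white matter library, and the replicates of SMA motor neurons and of WT white matter were well apart. The difference, motor neurons minus white matter, was -1.99 ± 0.43 in SMA and -1.60 ± 0.43 in WT in log2 units (limma adjusted p = 0.00794 and 0.021). Single libraries decided these calls: in SMA the adjusted p was 0.0525 without SMA white matter replicate 1 and 0.0531 without replicate 2, and in WT it was 0.097 without WT motor neuron replicate 1, 0.108 without replicate 2 and 0.171 without WT white matter replicate 2. With no filter on low values it was 0.0588 in WT.

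Fzd1, a receptor of the beta-catenin branch, was at 7.91 and 6.17 RPKM in SMA motor neurons and 3.06 and 3.96 RPKM in WT motor neurons. The white matter libraries held 23.9 and 17 RPKM in SMA and 13.0 and 20 RPKM in WT. Motor neuron means were 2.91-fold lower in SMA and 4.71-fold lower in WT, with log2 differences of -1.41 ± 0.33 and -1.94 ± 0.33 (limma adjusted p = 0.0122 and 0.0024). The WT call for Fzd1 held under all 17 alternatives run (adjusted p = 0.000741 to 0.0332), while in SMA it was lost without SMA white matter replicate 1 (0.0987).

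Fzd7, closely related to Fzd1 and Fzd2, was at 2.20 and 2.37 RPKM in SMA motor neurons and 2.57 and 2.79 RPKM in WT motor neurons. Its level was 11 and 6.74 RPKM in SMA white matter and 6.52 and 8.79 RPKM in WT white matter. Replicates of the motor neuron groups were close, and the log2 difference was -1.55 ± 0.35 in SMA and -1.22 ± 0.35 in WT (limma adjusted p = 0.00908 and 0.026). The WT call was lost without any 1 of the 4 WT libraries (adjusted p = 0.131 and 0.107 without motor neuron replicates 1 and 2, 0.0638 and 0.179 without white matter replicates 1 and 2), and the SMA call without SMA white matter replicate 1 (0.0838) and when the 4 SMA libraries were fitted alone (0.0529).

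Fzd2 was at 1.48 and 0.836 RPKM in SMA motor neurons and 1.81 and 1.71 RPKM in WT motor neurons, against 8.83 and 4.97 RPKM in SMA white matter and 6.48 and 4.06 RPKM in WT white matter. It passed the threshold in SMA (-1.84 ± 0.39, limma adjusted p = 0.00699) and not in WT (-1.16 ± 0.39, 0.0512), and the SMA call was lost without SMA white matter replicate 1 (0.0666). Fzd5 was at 0.115 and 0.350 RPKM in SMA motor neurons and 0.694 and 0.364 RPKM in WT motor neurons, against 1.81 and 2.72 RPKM in SMA white matter and 1.68 and 2.72 RPKM in WT white matter. It also passed in SMA (-1.40 ± 0.36, limma adjusted p = 0.0166) and not in WT (-1.06 ± 0.36, 0.0524), and the SMA call was lost without SMA white matter replicate 2 (0.0943) and under quantile normalization (0.0632). By voom on recovered reads Fzd5 passed in WT too (voom adjusted p = 0.0332), and Fzd2 did not (0.0546). For neither gene did the interaction, which tests the difference between the genotypes, pass (limma adjusted p = 0.883 to 0.967 over the 22 genes).

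**Figure D2:**
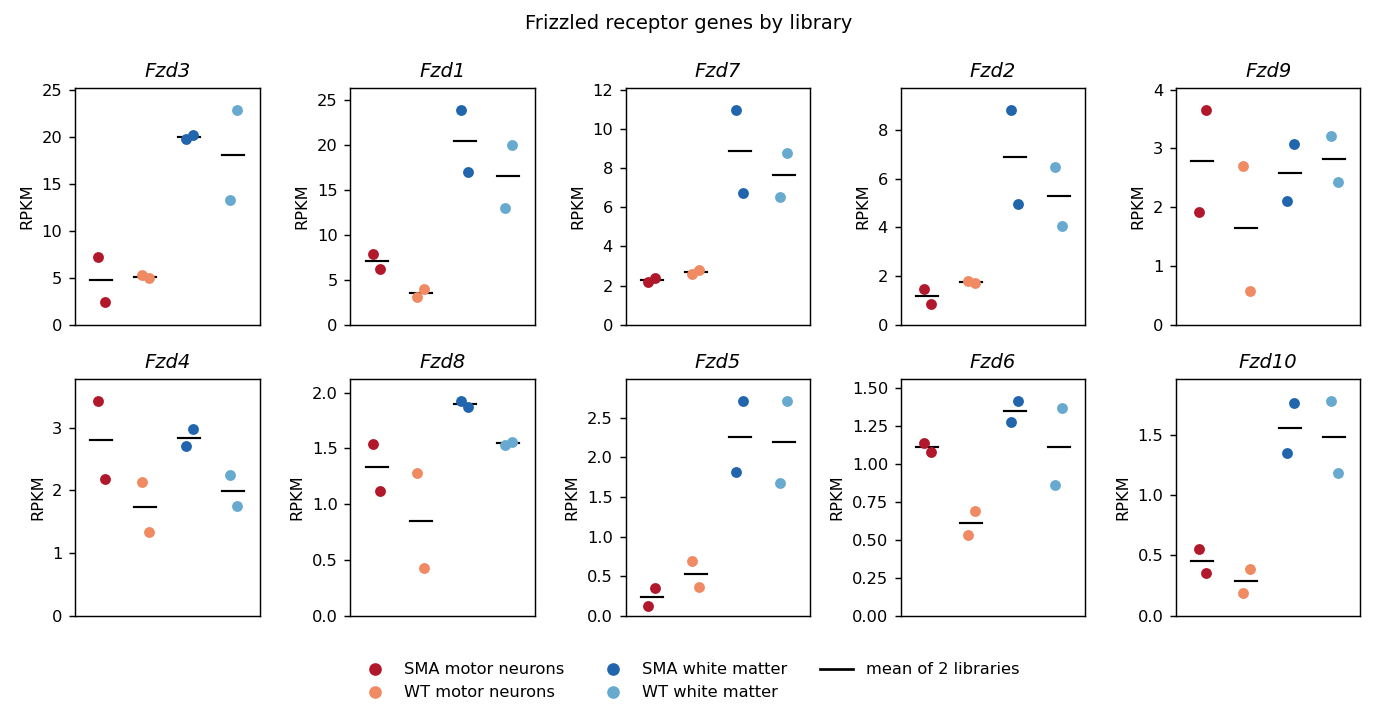
Level of the 10 Frizzled genes in RPKM, 1 panel per gene with its own axis from 0; points are the 2 libraries of each group and the black line is their mean. In 6 panels (Fzd1, Fzd2, Fzd3, Fzd5, Fzd7 and Fzd10) all red and orange motor neuron points lie below all blue white matter points.

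Among the receptors Fzd3 and Fzd1 had the highest means in each of the 4 groups. In WT white matter Fzd3 averaged 18.1 ± 6.79 RPKM (SD, n = 2) and Fzd1 16.5 ± 4.96, which did not differ beyond their spread, followed by Fzd7 at 7.66 ± 1.60 and Fzd2 at 5.27 ± 1.71. In WT motor neurons Fzd3 averaged 5.11 ± 0.225 RPKM and Fzd1 3.51 ± 0.638, ahead of Fzd7 at 2.68 ± 0.157. Fzd1, Fzd3 and Fzd7 together made up 53.3 to 68.1% of the Frizzled sum in the motor neuron libraries and 64.9 to 77.4% in the white matter libraries. Fzd4, the receptor for Norrin in the vasculature, stood at 2.81 ± 0.880 RPKM in SMA motor neurons and 1.73 ± 0.566 RPKM in WT motor neurons, against 2.83 ± 0.187 RPKM in SMA white matter and 2.0 ± 0.345 RPKM in WT white matter. Its differences between the regions were -0.03 ± 0.35 in SMA, a sign that flipped under median-of-ratios scaling (0.12), and -0.15 ± 0.35 in WT. Fzd10, which passed the filter only through white matter, was at 0.557 and 0.358 RPKM in SMA motor neurons and 0.184 and 0.389 RPKM in WT motor neurons, against 1.35 and 1.77 RPKM in SMA white matter and 1.79 and 1.19 RPKM in WT white matter. It did not pass in SMA (-0.81 ± 0.33, limma adjusted p = 0.0924) or in WT (-0.95 ± 0.33, 0.0606). Fzd6, Fzd8 and Fzd9 ranged between 0.424 and 3.66 RPKM over the 8 libraries and did not pass in either genotype (limma adjusted p = 0.327 to 0.942).

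Promoter sequence is shown for Fzd1 and Fzd7, 2 receptors with less RNA in motor neurons, and for Sfrp2, an inhibitor with more in those of WT. The 250 bases before the start site are given 5′ to 3′ on the gene's strand, from RefSeq on GRCm38.p6, in lower case. Capitals mark the core of the TCF/LEF motif (CTTTGA or its reverse complement TCAAAG) and the GC box (GGGCGG or CCGCCC), searched on both strands; copies of the GC box that overlap by a base run together. The windows are chr5:4758217-4758466 on the minus strand for Fzd1, chr1:59481897-59482146 on the plus strand for Fzd7 and chr3:83766071-83766320 on the plus strand for Sfrp2.
Fzd1: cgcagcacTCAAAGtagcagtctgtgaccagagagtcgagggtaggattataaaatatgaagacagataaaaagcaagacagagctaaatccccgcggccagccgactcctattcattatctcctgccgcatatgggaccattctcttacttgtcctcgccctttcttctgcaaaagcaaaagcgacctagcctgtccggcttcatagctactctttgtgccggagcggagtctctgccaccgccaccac
Fzd7: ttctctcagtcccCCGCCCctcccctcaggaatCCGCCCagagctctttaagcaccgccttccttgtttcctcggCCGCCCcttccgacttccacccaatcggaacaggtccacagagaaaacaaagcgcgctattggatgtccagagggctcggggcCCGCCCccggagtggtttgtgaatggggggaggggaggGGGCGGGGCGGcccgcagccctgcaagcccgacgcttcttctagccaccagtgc
Sfrp2: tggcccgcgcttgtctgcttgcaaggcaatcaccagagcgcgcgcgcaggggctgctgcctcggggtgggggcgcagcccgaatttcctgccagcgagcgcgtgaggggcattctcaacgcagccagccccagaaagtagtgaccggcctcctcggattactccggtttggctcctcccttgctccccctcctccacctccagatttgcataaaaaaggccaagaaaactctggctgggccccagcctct
The Fzd1 stretch holds 1 TCF/LEF core, 242 bases before the start site, and no GC box, the Fzd7 stretch holds 6 GC boxes, and the Sfrp2 stretch holds neither motif. Their GC content was 51.2% for Fzd1, 65.2% for Fzd7 and 63.6% for Sfrp2. Counted in the full windows of 300 bases, which include 50 bases after the start site, the TCF/LEF core occurred in 4 of 28 windows of the 25 genes matched (14.3%) and in 16% of 32851 windows of all genes. The GC box occurred in 21 of the 28 windows (75%) and in 35.7% of all windows. For the genes described here the windows of 1 chromosome were left out, and for all genes none were, so the shares rest on unlike rules. These matches describe letters and not binding.

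The Sfrp genes went the other way between the WT regions: Sfrp1, Sfrp2 and Sfrp4 were each higher in motor neurons there. Their RPKM sum, with the near-absent Sfrp5, was 30.2 and 21.7 in SMA motor neurons and 47.2 and 38.5 in WT motor neurons, against 22.8 and 18.0 in SMA white matter and 11.7 and 13.5 in WT white matter. The regions overlapped in SMA, where the lowest motor neuron library lay under the highest white matter library, and not in WT.

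Sfrp1, a secreted Wnt antagonist also expressed by neural progenitors, was at 12.5 and 9.52 RPKM in SMA motor neurons and 18.0 and 16.4 RPKM in WT motor neurons. In SMA white matter it was at 8.74 and 7.65 RPKM, and in WT white matter at 5.42 and 4.94 RPKM. Sfrp1 was the 1 gene of the 22 for which all 4 motor neuron libraries lay above all 4 white matter libraries, as did 21.5% of all genes tested. The log2 difference between regions was 0.37 ± 0.29 in SMA and 1.56 ± 0.29 in WT (limma adjusted p = 0.348 and 0.00345), and the WT call held under all 17 alternatives (0.000899 to 0.0419).

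Sfrp4 was at 5.88 and 1.94 RPKM in SMA motor neurons and 9.97 and 10.8 RPKM in WT motor neurons, against 2.21 and 0.426 RPKM in SMA white matter and 0.419 and 0.60 RPKM in WT white matter. In reads this was 844 and 281 in SMA motor neurons and 1596 and 1469 in WT motor neurons, against 376 and 77 in SMA white matter and 64 and 102 in WT white matter. In WT the motor neuron mean was 20.4-fold higher, a log2 difference of 2.92 ± 0.50 (limma adjusted p = 0.00234), and this call too held under all 17 alternatives (0.000143 to 0.025), but Sfrp4 had passed the filter only through motor neurons. In SMA the replicates of both regions spread widely and the difference of 1.07 ± 0.50 did not pass (limma adjusted p = 0.132).

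Sfrp2, an antagonist that is also abundant in mesenchymal cells, was at 11.9 and 10.2 RPKM in SMA motor neurons and 19.2 and 11.3 RPKM in WT motor neurons. The white matter libraries held 11.9 and 9.88 RPKM in SMA and 5.81 and 7.93 RPKM in WT. Its WT difference of 1.02 ± 0.33 passed narrowly (limma adjusted p = 0.0468) and was lost under 13 of 17 alternatives (0.0249 to 0.314 over the 17). Among these were median-of-ratios scaling (0.0584), voom (0.0609), the fit without WT motor neuron replicate 1 (0.314) or 2 (0.0532), without WT white matter replicate 1 (0.218) or 2 (0.0987), and without SMA white matter replicate 1 (0.0717) or 2 (0.0715). In SMA the difference was 0.02 ± 0.33 (limma adjusted p = 0.969).

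In the main fit the Sfrp genes thus passed in WT and not in SMA, but the test of that difference itself did not pass for any of them. The SMA side also depended on the scaling. Under quantile normalization 1 of the 22 genes passed as higher in motor neurons in SMA, and the Sfrp4 difference was 1.33 there. The SMA effect in motor neurons minus the SMA effect in white matter was -1.18 ± 0.41 for Sfrp1, -1.84 ± 0.71 for Sfrp4 and -1.0 ± 0.47 for Sfrp2 (limma adjusted p = 0.883 for each; unadjusted p = 0.0167, 0.0275 and 0.0626). The median over all genes tested was -0.335 for the same contrast and -0.030 after median-of-ratios scaling, where Sfrp1 stood at -0.85 and Sfrp4 at -1.67. Among the 13948 genes 0 passed this contrast (limma; 693 at unadjusted p under 0.05; 0 by voom on recovered reads).

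**Figure D3:**
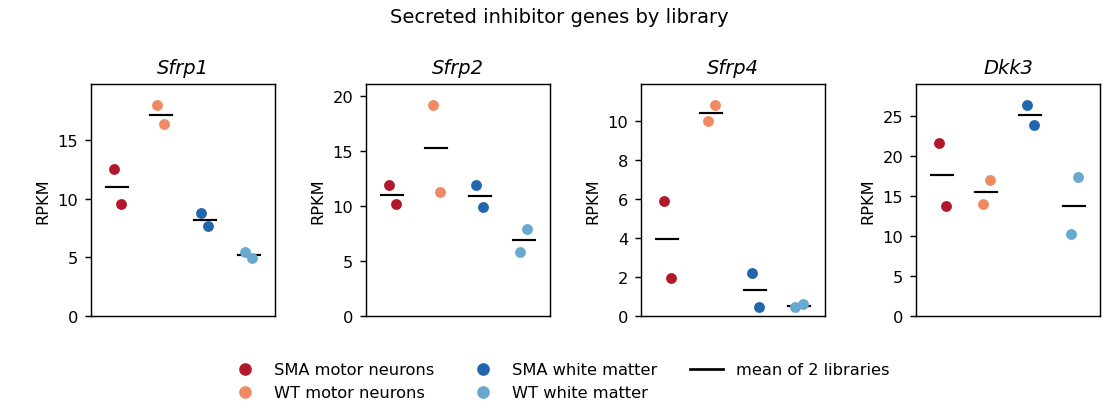
Level of Sfrp1, Sfrp2, Sfrp4 and Dkk3 in RPKM, 1 panel per gene with its own axis from 0; points are the 2 libraries of each group and the black line is their mean. For Sfrp1 and Sfrp4 the red SMA motor neuron points lie below the orange WT motor neuron points, and for Sfrp1, Sfrp2 and Dkk3 the dark blue SMA white matter points lie above the light blue WT white matter points.

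A last measure set the Sfrp genes against the receptors within each library, a ratio that library scaling cannot change. The Sfrp sum was 1.1 and 1.05 times the Frizzled sum in SMA motor neurons, 2.33 and 2.24 times in WT motor neurons, 0.306 and 0.286 times in SMA white matter and 0.231 and 0.201 times in WT white matter. No group overlapped another, and SMA motor neurons lay between WT motor neurons and both white matter groups. Without Sfrp4 the ratios were 0.885 and 0.960 in SMA motor neurons and 1.84 and 1.61 in WT motor neurons. This ratio was chosen after its values were seen and has no test. In the same motor neuron libraries the 8 microglia markers summed to 91.4 and 80.5 RPKM in SMA and 26.1 and 31.1 RPKM in WT, and the 7 motor neuron markers to 535 and 541 RPKM in SMA and 619 and 637 RPKM in WT. Their part in the ratio was not tested.

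Dkk3 was the 1 Dkk gene that passed the filter. It was at 21.6 and 13.7 RPKM in SMA motor neurons and 14.0 and 17 RPKM in WT motor neurons, against 26.4 and 23.9 RPKM in SMA white matter and 10.2 and 17.4 RPKM in WT white matter. Motor neuron libraries of both genotypes overlapped, and the regions did not differ past the threshold in SMA (-0.52 ± 0.34, limma adjusted p = 0.264) or in WT (0.19 ± 0.34, 0.713). Dkk1, Dkk2 and Dkk4, the classical Lrp-binding inhibitors, were at 0.275 RPKM or less in every library. The most seen of Dkk2 was 0.243 RPKM, in SMA white matter replicate 1, from 87 reads.

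The ligands were expressed at low levels. The 19 genes summed to 18.7 and 12.2 RPKM in SMA motor neurons and 15.8 and 14.9 RPKM in WT motor neurons, against 32.9 and 17.1 RPKM in SMA white matter and 22.5 and 20.9 RPKM in WT white matter. Wnt7a, Wnt7b, Wnt4 and Wnt5a had the highest means over the 8 libraries, at 4.69, 3.58, 3.18 and 2.90 RPKM.

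Wnt7a, which with Wnt7b drives blood vessel growth in the central nervous system and also acts at synapses, was at 8.12 and 2.26 RPKM in SMA motor neurons and 3.99 and 3.45 RPKM in WT motor neurons. Its level was 5.69 and 1.99 RPKM in SMA white matter and 6.97 and 5.08 RPKM in WT white matter. Wnt7b was at 1.69 and 3.17 RPKM in SMA motor neurons and 3.55 and 1.35 RPKM in WT motor neurons. In SMA white matter it was at 7.30 and 3.24 RPKM, and in WT white matter at 5.02 and 3.33 RPKM. In the SMA groups the Wnt7a replicates differed by more than the groups did, and neither gene passed between the regions in either genotype (limma adjusted p = 0.215 to 0.708).

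Wnt4 was at 3.90 and 4.53 RPKM in SMA motor neurons and 1.19 and 3.05 RPKM in WT motor neurons. The white matter libraries held 5.90 and 2.34 RPKM in SMA and 1.33 and 3.23 RPKM in WT. Wnt5a, a ligand of the beta-catenin-independent branch, was at 2.23 and 1.08 RPKM in SMA motor neurons and 2.67 and 2.38 RPKM in WT motor neurons. Its level was 5.25 and 3.29 RPKM in SMA white matter and 2.95 and 3.35 RPKM in WT white matter. All 4 motor neuron libraries lay below all 4 white matter libraries for Wnt5a, but the regions did not pass in SMA (-1.0 ± 0.37, limma adjusted p = 0.0672) or in WT (-0.24 ± 0.37, 0.68).

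Wnt5b was near 0 in motor neurons, and it passed the filter only through white matter, so its region difference is a description. It was at 0 and 0.179 RPKM in SMA motor neurons and 0.102 and 0.131 RPKM in WT motor neurons, against 2.67 and 1.82 RPKM in SMA white matter and 1.03 and 1.57 RPKM in WT white matter. In reads this was 0 and 35 in SMA motor neurons and 22 and 24 in WT motor neurons, against 613 and 443 in SMA white matter and 212 and 360 in WT white matter. The log2 difference was -1.57 ± 0.34 in SMA and -1.03 ± 0.34 in WT (limma adjusted p = 0.00769 and 0.0458). The WT call was lost under 7 of 17 alternatives (0.0237 to 0.215 over the 17): quantile normalization (0.0674), voom on recovered reads (0.0813), the replicate block (0.0632), and the fits without WT motor neuron replicate 1 (0.167) or 2 (0.154) and without WT white matter replicate 1 (0.0836) or 2 (0.215). The SMA call held under all 17 (0.00426 to 0.0489).

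Wnt2b was at 0.511 and 0.442 RPKM in SMA motor neurons and 1.46 and 1.87 RPKM in WT motor neurons. In SMA white matter it was at 3.12 and 2.28 RPKM, and in WT white matter at 1.90 and 0.475 RPKM. Wnt2b was lower in motor neurons than in white matter in SMA (-1.32 ± 0.40, limma adjusted p = 0.0322), a call lost under 8 of 17 alternatives (0.026 to 0.151). It was lost without SMA motor neuron replicate 2 (0.0677), WT motor neuron replicate 1 (0.0539) or 2 (0.0536), and SMA white matter replicate 1 (0.151) or 2 (0.0791), and under quantile normalization (0.109). In WT the regions overlapped (0.36 ± 0.40, limma adjusted p = 0.538). Wnt3, a ligand known in spinal cord for acting on sensory axons, reached 1 RPKM in SMA motor neuron replicate 1 (1.38 RPKM, 350 reads) and not in replicate 2 (0.039 RPKM, 10 reads), so 1 library set its SMA motor neuron mean.

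Wnt11 did not pass the filter, yet it had reads mostly in motor neurons. It was at 0.272 and 0.10 RPKM in SMA motor neurons (62 and 23 reads) and 0.780 and 0.713 RPKM in WT motor neurons (198 and 154 reads), against 0 and 0.0139 RPKM in SMA white matter (0 and 4 reads) and 0 in both WT white matter libraries. Wnt2 was likewise above 0 in all 4 motor neuron libraries, with 76 and 11 reads in SMA and 23 and 60 reads in WT, and was listed at 0 in all 4 white matter libraries. Wnt1 and Wnt3a, the roof plate ligands, were at 0.0413 RPKM or less throughout, and Wnt10a, Wnt10b, Wnt3a, Wnt8a and Wnt9b were each above 0 in 1 library. Reads are amplified cDNA without molecular identifiers, so 10 reads need not be 10 molecules.

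Counted over the 22 genes tested, 7 passed between the SMA regions, 0 higher and 7 lower in motor neurons, where 30.8% of all 13948 genes passed (13.6% higher and 17.2% lower). Between the WT regions 7 passed, 3 higher and 4 lower, where 28.4% of all genes passed (18.6% higher and 9.85% lower). The members' share, 7 of 22, was close to that of all genes in both genotypes. In WT 3 of 3 Sfrp genes tested passed on the motor neuron side, and 3 of 10 Frizzled genes and 1 of 8 ligands on the white matter side. Of the Sfrp genes, Sfrp4 had met the filter only through motor neurons, and the Sfrp2 call was lost under 13 of 17 alternatives. With so few genes in a role, these counts describe the genes and set no role apart. The median log2 difference over the 22 genes was -0.67 in SMA and -0.53 in WT, beside -0.24 and 0.08 over all genes tested. These medians include the 5 genes that met the filter through 1 region, so they too are descriptions. In SMA 5 of 10 Frizzled genes, 2 of 8 ligands and 0 of 3 Sfrp genes passed, all lower in motor neurons. Without the 5 genes that met the filter through 1 region, 5 of 17 passed in SMA, 0 higher and 5 lower, and 5 of 17 in WT, 2 higher and 3 lower.

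By the order of the libraries alone, 1 of the 22 genes (4.55%) had both SMA motor neuron libraries above both SMA white matter libraries, beside 26.7% of all genes tested, and 14 (63.6%) had both below, beside 37.2%. In WT the counts were 3 above (13.6%), beside 39% of all genes, and 12 below (54.5%), beside 31%. These counts include genes that met the filter only through the region in which they were higher. Fzd5, Fzd10 and Wnt5b are among the genes below in both genotypes, and Wnt3 is among those below in WT. Sfrp4 is among the genes above in WT. The counts therefore describe the genes and are no support for a pattern.

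The counts of calls depended on single libraries. The WT count of 7 became 3 without WT motor neuron replicate 1, 3 without WT motor neuron replicate 2, 4 without WT white matter replicate 1 and 3 without WT white matter replicate 2, and 11 without either SMA motor neuron library, which enter only through the shared spread. The SMA count of 7 became 2 without SMA white matter replicate 1 and 4 without SMA white matter replicate 2.

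**Figure D4:**
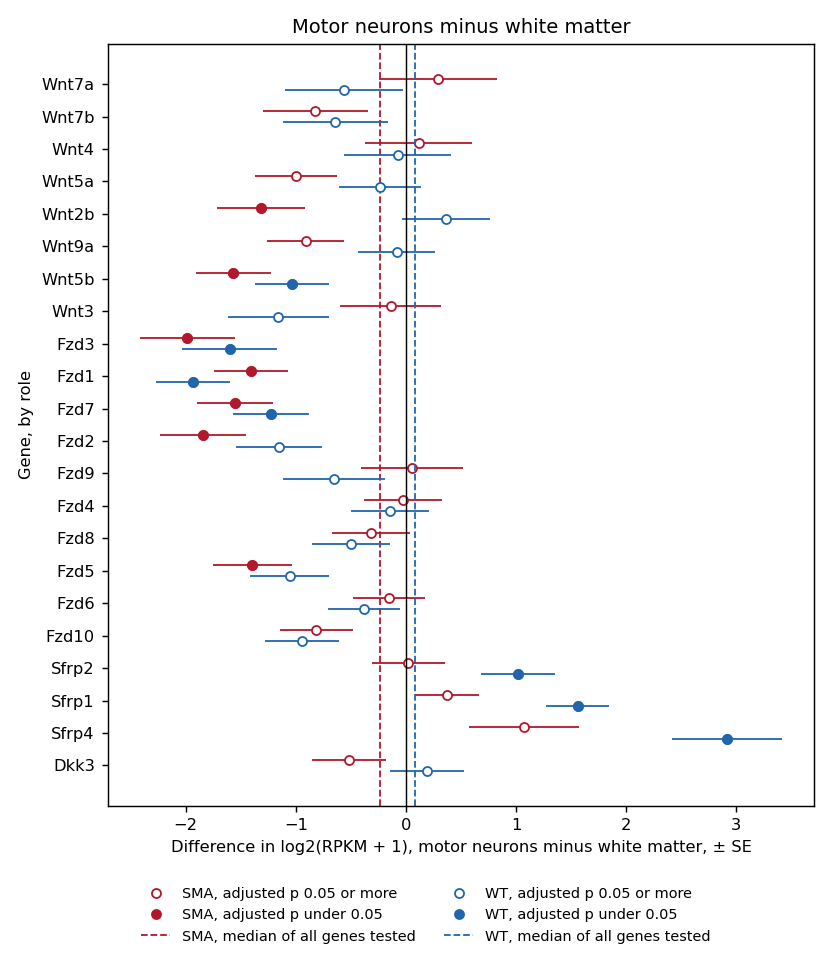
Difference in log2(RPKM + 1), motor neurons minus white matter, for the 22 genes tested, with SE bars, in SMA (red, above) and WT (blue, below); filled points have a limma adjusted p under 0.05 and dashed lines are the medians of all genes tested. Fzd1, Fzd2, Fzd3, Fzd5, Fzd7 and Fzd10 lie left of both medians in both genotypes, and the Sfrp genes lie furthest to the right in WT, with Sfrp4 at 2.92.

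Other genes of the pathway, from lists chosen for their role, were tested in the same fit, and their counts stand beside the same 13.6% higher and 17.2% lower of all genes tested in SMA and 18.6% and 9.85% in WT. With so few genes in a list, these counts describe the genes and set no list apart from the rest. The genes tested include some that met the filter only with libraries of 1 region, among them Kremen2, Dact2 and Sostdc1 (motor neurons) and Wif1 (white matter). Region calls of such genes are descriptions. Of 7 target and feedback genes tested, 0 were higher and 3 lower in motor neurons in SMA, and 0 and 3 in WT, namely Axin2, Nkd1 and Ccnd1. Axin2, a feedback inhibitor and common readout of the branch, averaged 2.36 ± 0.818 RPKM in SMA motor neurons and 3.77 ± 1.45 RPKM in WT motor neurons, against 13.8 ± 4.08 RPKM in SMA white matter and 9.44 ± 0.606 RPKM in WT white matter (SD, n = 2; limma adjusted p = 0.0028 in SMA and 0.0416 in WT). Of 17 intracellular genes tested, 1 passed as higher and 4 as lower in motor neurons in SMA, and 3 and 2 in WT. The TCF factor Tcf7l2, which marks differentiating oligodendrocytes, averaged 2.25 ± 1.13 RPKM in SMA motor neurons and 1.83 ± 0.125 RPKM in WT motor neurons, against 42.0 ± 21.7 RPKM in SMA white matter and 28.2 ± 9.15 RPKM in WT white matter (limma adjusted p = 0.000411 and 0.000503). Gsk3a, a kinase of the beta-catenin destruction complex, was higher in motor neurons in SMA (64.3 ± 7.53 against 24.5 ± 9.18 RPKM) and WT (58.3 ± 1.15 against 15.3 ± 4.46 RPKM; limma adjusted p = 0.0095 and 0.00201).

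Secretion and agonist genes were divided between the regions. Wls, the carrier that brings Wnts to the cell surface, averaged 1.44 ± 1.01 RPKM in SMA motor neurons and 2.69 ± 1.12 RPKM in WT motor neurons, against 14.4 ± 1.23 RPKM in SMA white matter and 13.5 ± 3.85 RPKM in WT white matter (limma adjusted p = 0.00134 and 0.00575). It belonged to a list of secretion and modulator genes of which 1 of 12 tested was higher in motor neurons and 4 lower in SMA, and 3 and 1 in WT. The R-spondins, which amplify Wnt signals by protecting Frizzled receptors from the ubiquitin ligases Znrf3 and Rnf43, had 2 tested members that passed on the motor neuron side, Rspo3 and Rspo2. Rspo3 averaged 8.34 ± 1.41 RPKM in SMA motor neurons and 12.1 ± 0.831 RPKM in WT motor neurons, against 1.70 ± 1.24 RPKM in SMA white matter and 0.655 ± 0.0173 RPKM in WT white matter (limma adjusted p = 0.00655 and 0.000508). Rspo2 passed on the same side in both genotypes (limma adjusted p = 0.00368 and 0.00411), but Rspo2 and Rspo3 both met the filter only with motor neuron libraries. In their list 2 of 8 genes tested were higher in motor neurons and 3 lower in SMA, and 3 and 0 in WT.

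Of 12 planar polarity genes tested, 4 were higher in motor neurons and 1 lower in SMA, and 5 and 1 in WT. Celsr3, an atypical cadherin that works with Fzd3 in axon tracts, averaged 7.04 ± 0.656 RPKM in SMA motor neurons and 7.73 ± 0.456 RPKM in WT motor neurons, against 1.11 ± 0.172 RPKM in SMA white matter and 1.12 ± 0.366 RPKM in WT white matter (limma adjusted p = 0.00247 and 0.00155), the opposite side to Fzd3. Daam2, a formin that binds Dishevelled, was the 1 lower gene of this list in both genotypes (limma adjusted p = 0.00207 in SMA and 0.00447 in WT). Among 8 co-receptor and alternative receptor genes tested, 1 was higher in motor neurons and 2 lower in SMA, and 0 and 1 in WT. The single WT call was the co-receptor Lrp5 (0.642 ± 0.792 RPKM in WT motor neurons and 3.01 ± 0.0752 RPKM in WT white matter; limma adjusted p = 0.0316).

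Motor neurons are the cells lost in the disease, and SMA and WT motor neurons were compared next. None of the 22 genes passed (limma, 0 of 22, smallest adjusted p = 0.926; 3 at unadjusted p under 0.05; 0 by voom), as none of all 13948 did (0%; 609 at unadjusted p under 0.05). The 3 genes with the smallest p were Wnt9a, Sfrp4 and Fzd1. Among the 22, 4 had both SMA libraries above both WT libraries and 8 had both below, which is 18.2 and 36.4%, beside 12.7 and 15.5% of all genes tested. After median-of-ratios scaling the counts were 6 above and 6 below, beside 13.8 and 15.3% of all genes. The median log2 difference was 0.00 over the 22 genes and -0.05 over all genes tested.

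Wnt9a was at 0.103 and 0.263 RPKM in SMA motor neurons and 1.24 and 1.56 RPKM in WT motor neurons, from 28 and 72 reads in SMA and 374 and 400 reads in WT. The groups did not overlap and the means differed 7.62-fold, a log2 difference of -1.02 ± 0.35 (unadjusted p = 0.0164 by limma, adjusted p = 0.926). In white matter Wnt9a was at 1.48 and 0.985 RPKM in SMA and 1.11 and 2.05 RPKM in WT, which overlapped (-0.19 ± 0.35).

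Sfrp4, with the values given above, differed by -1.34 ± 0.50 on the log2 scale between SMA and WT motor neurons (unadjusted p = 0.0245 by limma, adjusted p = 1). Fzd1 had the 1 positive difference of the 3, with a mean 2.0-fold that of WT motor neurons and a log2 difference of 0.83 ± 0.33 (unadjusted p = 0.0333 by limma, adjusted p = 1). Its 2 SMA libraries both lay above its 2 WT libraries.

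In white matter, none of the 22 genes passed between SMA and WT either (limma, 0 of 22, smallest adjusted p = 0.741; 1 at unadjusted p under 0.05; 0 by voom; 0% of all genes, with 880 at unadjusted p under 0.05 and 1 by voom). The deposited scale set SMA white matter higher across genes, with a median log2 difference of 0.27 over all genes tested, and 0.00 after median-of-ratios scaling. The median over the 22 genes was 0.26. In 7 of the 22 (31.8%) both SMA libraries lay above both WT libraries, beside 39.7% of all genes tested, and after median-of-ratios scaling it was 3 (Dkk3, Sfrp1 and Sfrp2), beside 15.2%. In 1 (Wnt3, 4.55%) both lay below on the deposited scale, beside 4.17% of all genes, and in 3 after median-of-ratios scaling, beside 13.9%.

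The 3 smallest p-values in white matter belonged to Dkk3, Wnt2b and Sfrp1, with positive differences, SMA minus WT, of 0.86 ± 0.34, 0.83 ± 0.40 and 0.57 ± 0.29 on the log2 scale (unadjusted p = 0.0287, 0.0646 and 0.0776 by limma, adjusted p = 0.741 for each). After median-of-ratios scaling these differences were 0.55, 0.61 and 0.28. In the same libraries the 8 fibroblast or meninges markers summed to 355 and 286 RPKM in SMA white matter and 104 and 157 RPKM in WT white matter, and the 5 pericyte markers to 22.8 and 15.8 RPKM in SMA and 8.65 and 7.02 RPKM in WT. Their part in these differences was not tested.

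Over both regions together 0 of 22 genes passed (limma, smallest adjusted p = 0.792; 2 at unadjusted p under 0.05; 0 by voom; 0% of all genes, with 836 at unadjusted p under 0.05 and 1 by voom). The 3 with the smallest p were Wnt9a (-0.61 ± 0.25), Fzd1 (0.57 ± 0.24) and Dkk3 (0.51 ± 0.24), with unadjusted p = 0.0354, 0.0386 and 0.0597 by limma. In the contrast between the SMA effects of the regions Wnt2b had the smallest p (-1.68 ± 0.56, unadjusted p = 0.0143 by limma, adjusted p = 0.883), followed by Sfrp1 and Sfrp4. Sfrp1 and Wnt2b had both SMA libraries below both WT libraries in motor neurons and above both in white matter, as did 5.68% of all genes tested. After median-of-ratios scaling Sfrp1 alone of the 22 did, beside 2.07%. In the other pathway lists 0 genes passed any of these 4 contrasts (limma), with 0 to 2 of each list at unadjusted p under 0.05 in a contrast; voom called 0, 1, 1 and 0 of all genes in the order given here.

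**Figure D5:**
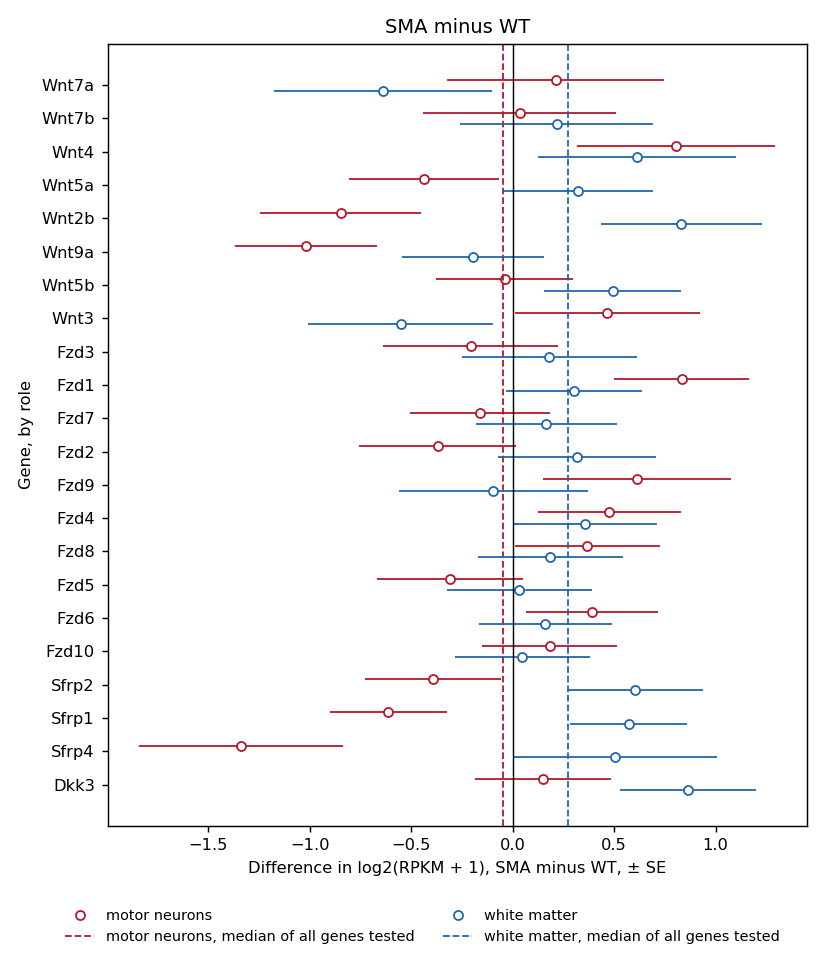
Difference in log2(RPKM + 1), SMA minus WT, for the 22 genes tested, with SE bars, in motor neurons (red, above) and white matter (blue, below); dashed lines are the medians of all genes tested. All points are open because none had a limma adjusted p under 0.05; the Sfrp genes lie left of 0 in motor neurons and right of 0 in white matter.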

How the data were processed

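RNA-seq of 8 libraries was used, 2 for each of SMA motor neurons, WT motor neurons, SMA white matter and WT white matter. Per the labels' protocols, hematoxylin-stained cryosections were laser-captured by position and morphology, and cDNA was amplified with the NuGEN Ovation system. The deposited tables, 1 for each library, hold gene symbols with the authors' RPKM. TopHat, bedtools, DESeq and the mm9 build are named in the submitters' processing notes. The annotation, the counting rule and whether strand was used are not stated there, so reads shared with overlapping, antisense or similar genes are uncertain. The promoter windows are on another build and were matched by symbol.

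Members were taken by gene symbol. The members, lists and tests were chosen with earlier results of these data known. Full values were given for members called in any contrast, the 3 of each role with the highest mean, and the 3 with the smallest p in each SMA contrast.

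With R 4.3.3 and limma 3.58.1, 4 group means were fitted to log2(RPKM + 1), pseudocount 1 RPKM, for 13948 genes with at least 1 RPKM in at least 2 libraries, using eBayes with trend, two-sided p-values and Benjamini-Hochberg adjustment over all genes (threshold 0.05). The fit was tested on simulated data.

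Each library's RPKM denominator was worked out from the steps in the RPKM values. The denominators at which 701 microRNA and small nucleolar RNA genes of known length gave whole reads were 77.5 to 102.8 M (highest over lowest 1.33). Reads recovered over all genes summed to 103 to 120.7 M in motor neuron libraries and 82 to 105.5 M in white matter libraries. These sums exceeded the denominator in every library but WT white matter replicate 2, so the denominators need not be plain read totals. The reason was not tested. For 100% of 17431 genes above 0 in at least 3 libraries, a length gave whole reads within 0.02 of a read. Alternatives were other pseudocounts, filters, scalings and variance priors, the compared libraries alone, voom on recovered reads, a replicate block and leaving out each library. Python 3.11.15, pandas 2.3.3, numpy 2.4.6 and matplotlib 3.10.9 were used.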

Additional observations from a re-analysis of the deposited data

Results flagged for a closer look

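Sfrp1 had a difference between the SMA effects of the regions, motor neurons minus white matter, of -1.18 on the log2 scale, and Wnt2b one of -1.68. Both stood out because the SMA libraries lay below both WT libraries in motor neurons and above both in white matter, a pattern that 5.68% of all genes tested also had. The interaction did not pass for either (limma adjusted p = 0.883). After median-of-ratios scaling Sfrp1 kept the pattern, as did 2.07% of all genes, and Wnt2b did not, since its white matter groups then overlapped.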

How the results depend on the processing

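Of the 22 genes, 0 were called in the 4 contrasts with SMA against WT, also under every alternative run. Between the WT regions the count of 7 was 6 to 10 under the alternatives that kept all compared libraries, and 3 to 11 when a library was left out. Between the SMA regions the count of 7 was 5 to 8, and 2 to 8 when a library was left out. Of the 14 calls, 0 reversed under any alternative. The labels do not say that replicate numbers mark the same animals. For groups compared directly, the replicate 1 minus replicate 2 differences correlated at 0.012 to 0.074 across genes, which are not independent replicates. Groups that meet only in the contrasts over all 4 groups differed more. The correlation was -0.343 between SMA motor neurons and WT white matter and 0.080 between WT motor neurons and SMA white matter. With the replicate number as a block the counts were 6 in WT, 7 in SMA and 0 in the contrasts of SMA against WT. The block ended the WT calls of Sfrp2 (adjusted p = 0.0541) and Wnt5b (0.0632). Fitting the compared libraries alone was not run for the contrasts that use all 4 groups. Genes under about 1 RPKM are limited by the pseudocount: the log2 difference of Wnt9a, SMA minus WT motor neurons, was -1.02 with 1 RPKM added and -2.45 with 0.1 RPKM added.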
